A study of Mus musculus with 47 samples.

Results

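Homeobox genes encode transcription factors that bind DNA through a homeodomain and set the identity of body regions and cell types in the embryo. The genes described here are 56 homeobox genes that lie outside the 4 Hox clusters, chosen by name from the Dlx, sine oculis, Irx, LIM homeodomain, NK, paired-like, Msx, engrailed, Emx, Gbx, Bar, Cdx, Meis and Prox families, out of 22225 protein-coding genes of the mm9 annotation. All 56 were found in that annotation, on 15 autosomes. Each gene was described by the percent of its span inside H3K27me3 regions, by the width of the region that held it, and by the H3K27ac and H3K4me1 peaks within 10 kb of its span.

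The lists come from livers of mice aged 7 weeks, and compare floxed control mice (Ezh2 f/f) with E1/E2-KO mice (Ezh1-/-, Ezh2 f/f, with Alb-Cre; knockout in the text that follows), separately in males and females. The albumin promoter drives the Cre recombinase, so knockout mice lack Ezh1 in every cell but lack Ezh2 in hepatocytes, while the endothelial, Kupffer and stellate cells of the same liver keep Ezh2. The labels give 4 livers for each mark and group, and 3 for H3K4me1 in knockout females, 47 samples in all. The methods of the study describe equal numbers of livers for all groups. The authors pooled the reads of the livers of a group before they called peaks, so that each mark has 4 lists with no replicate, no peak height and no depth; no test of a difference between lists against liver-to-liver spread was possible, and none of the counts has an error. A larger or smaller share of cells that carry a mark cannot be told apart from more or less mark per cell.

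Polycomb repressive complex 2 places H3K27me3 through its catalytic subunit, either EZH1 or EZH2, and developmental transcription factor genes are its best known targets. In adult tissues, homeobox genes that are not used by that tissue lie in broad H3K27me3 domains. H3K27ac and H3K4me1 mark promoters and enhancers that are active, or in the case of H3K4me1 alone are primed. Most of the 56 genes act in the brain, limbs, heart, gut or face of the embryo. Prox1 and Hhex are needed to form the liver and stay active in hepatocytes, Meis1 and Meis2 encode cofactors of Hox proteins that many tissues use, and Pdx1 and Cdx2 set pancreas and intestine identity.

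Called H3K27me3 regions covered nearly all of these genes in control liver and in knockout liver. Coverage counts called regions and does not measure how much of the mark remained in them. The paper cites an earlier report of reduced global H3K27me3 in most knockout hepatocytes at an older age. It also states that its ChIP-seq may understate the loss at some sites. At least 50% of the gene was covered at 54 of the 56 genes in control male liver, where the share among all protein-coding genes was 29.9%. The count was 53 in control female liver (29.7% of all genes), 53 in knockout male liver (32.5% of all genes) and 54 in knockout female liver (28.7% of all genes). In all 4 lists together, 52 of the 56 genes were covered, 92.9% against 20.1% of all genes. Coverage was complete, 100% of the span in each of the 4 lists, at 49 of the 56 genes, against 12.3% of all genes. The annotated start of the gene lay inside a region for 55, 55, 56 and 55 genes in the control male, control female, knockout male and knockout female lists, against 34.7%, 35.4%, 39.1% and 34.2% of all genes. The gene outside was Prox1 in both control lists and Meis1 in the knockout female list. The RefSeq start of Hhex lies 1954 bp past its annotated start and was outside in control females. The region there ended 1824 bp past the annotated start.

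The covered genes included every Dlx, Irx, NK, paired-like and Msx gene, and Six2, Six3, Six4 and Six6, each at 100% in all 4 lists. Pdx1, the pancreas regulator, and Cdx1 and Cdx2, the intestinal caudal genes, were likewise at 100% in all 4 lists. Lhx2, a LIM homeodomain gene that hepatic stellate cells use, was at 100% in each list as well. The LIM homeodomain gene Lhx6, a regulator of forebrain interneurons, had 90.9% and 82.4% covered in control male and female liver and 100% in both knockout lists. Barx2, a Bar family gene, followed the same order with 94.1% and 86.3% in control liver and 100% in both knockout lists. Lmx1a, which acts in midbrain dopamine neurons, was at 89.7% and 83.9% in control liver and at 89.2% and 83.2% in knockout liver, a difference of under 1 percentage point in either sex.

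The stretches just upstream of 5 genes are shown because they stand for 3 of the patterns seen in these lists, namely H3K27me3 in all lists (Pdx1, En1, Msx1), H3K27me3 kept at the start while it was lost from the gene body (Meis2) and H3K27me3 present in knockout lists only (Prox1). Each is 200 bases of the mm9 genome, 5′ to 3′ in the direction of the gene, ending just before the gene span or, for Msx1 and Prox1, before the RefSeq start that lies further out, and capitals mark the dinucleotide CG, which is its own reverse complement and so reads alike on both strands. The positions are chr5:148081335-148081534, plus strand, for Pdx1; chr1:122498795-122498994, plus strand, for En1; chr5:38215825-38216024, minus strand, for Msx1; chr2:115891576-115891775, minus strand, for Meis2; and chr1:191994707-191994906, minus strand, for Prox1.
Pdx1: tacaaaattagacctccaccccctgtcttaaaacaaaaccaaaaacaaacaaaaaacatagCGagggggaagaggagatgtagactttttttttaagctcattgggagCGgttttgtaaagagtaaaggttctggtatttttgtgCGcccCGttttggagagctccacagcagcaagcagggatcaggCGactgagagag
En1: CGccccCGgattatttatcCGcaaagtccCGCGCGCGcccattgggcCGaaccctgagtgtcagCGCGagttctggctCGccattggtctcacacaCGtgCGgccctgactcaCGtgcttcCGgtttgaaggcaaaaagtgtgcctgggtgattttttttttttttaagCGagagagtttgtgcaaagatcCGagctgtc
Msx1: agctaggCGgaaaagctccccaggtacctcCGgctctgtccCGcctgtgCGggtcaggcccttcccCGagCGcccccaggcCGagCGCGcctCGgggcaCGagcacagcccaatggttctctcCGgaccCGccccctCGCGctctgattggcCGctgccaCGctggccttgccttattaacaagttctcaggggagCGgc
Meis2: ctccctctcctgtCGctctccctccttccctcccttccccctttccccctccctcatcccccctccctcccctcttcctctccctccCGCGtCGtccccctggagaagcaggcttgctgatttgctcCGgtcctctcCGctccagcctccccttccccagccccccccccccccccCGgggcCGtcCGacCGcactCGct
Prox1: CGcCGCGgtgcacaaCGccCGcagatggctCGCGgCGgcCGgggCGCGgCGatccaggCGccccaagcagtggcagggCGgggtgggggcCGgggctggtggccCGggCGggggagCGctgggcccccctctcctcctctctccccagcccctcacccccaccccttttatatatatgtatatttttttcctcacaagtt

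These windows hold 5, 17, 18, 11 and 18 CG for Pdx1, En1, Msx1, Meis2 and Prox1, and 60.3%, 21.7%, 19.2%, 39.3% and 19.2% of all genes hold at least as many in the 200 bases before the gene span. Over the 56 genes the median was 11.5 CG in that window, against 7 over all genes. In the 2 kb around the annotated start, the 56 genes had a median of 112.5 CG and a range of 33 to 195, the median was 61 over all genes and 52 over the 4476 genes that H3K27me3 covered in all 4 lists. At least 60 CG stood in that window at 96.4% of the homeobox genes, 50.6% of all genes and 45.2% of the covered genes. The exceptions were Lhx3, a pituitary and motor neuron gene, with 33 and Hhex with 36, whose annotated start lies 1954 bp upstream of its RefSeq start. Prox1 with 101 and Meis2 with 84 did not stand apart from the other homeobox genes in CG content, although their H3K27me3 did.

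Prox1 was the only homeobox gene of the 56 that held no H3K27me3 in control liver and had it in knockout liver in both sexes. Prox1 (chr1:191945660-191994559, minus strand) had 0% of its span covered in control male and control female liver, 34.7% in knockout male and 50.2% in knockout female liver. The regions measured 44000 bp in males and 34800 bp in females, and both lay across the start of the gene, reaching 27042 bp and 10242 bp upstream and 16958 bp and 24558 bp into the gene. H3K27ac peaks within 10 kb of Prox1 numbered 3 in control male, 9 in control female, 11 in knockout male and 9 in knockout female liver, and peaks lay within 1 kb of the start in all 4 lists. The gene thus carried called H3K27ac peaks at its start in knockout liver inside a region called for H3K27me3, and the pooled lists do not show whether the same cells carried both marks. H3K4me1 peaks within 10 kb numbered 4 and 4 in control male and female liver, 7 in knockout male and 1 in knockout female liver.

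Hhex, the other hepatic gene, was partly covered in control liver and fully covered in knockout liver. Hhex (chr19:37507377-37515218, plus strand) had 84.5% covered in control male, 23.3% in control female, and 100% in both knockout lists. The region grew from 23600 bp to 61600 bp in males and from 18000 bp to 74800 bp in females, 2.61-fold and 4.16-fold. The region ended 6624 bp and 1824 bp past the start in control male and female liver and 41024 bp and 59824 bp past it in knockout liver. Much of this was the closing of a gap, since control liver had separate regions further downstream, from 28224 to 41024 bp past the start in males and from 27824 to 41024 bp in females. Over the 200 kb centred on the start of Hhex, the share covered was 67.1% in control male and 58.9% in knockout male liver, lower in the knockout, and 49.1% in control female and 52.9% in knockout female liver. H3K27ac at Hhex hardly moved in number, with 5, 6, 4 and 5 peaks within 10 kb in control male, control female, knockout male and knockout female liver. For H3K4me1 the counts were 3, 3, 3 and 1. Within 1 kb of the RefSeq start of Hhex, 2 H3K27ac peaks were called in each of the 4 lists. Within 1 kb of its annotated start there were 0 in each.

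Meis2 went the other way. This gene (chr2:115688800-115891575, minus strand, the longest of the 56 genes at 202776 bp) had 78.1% and 69.2% covered in control male and female liver and 28.8% and 7.09% in knockout male and female liver, a drop of 49.3 and 62.1 percentage points. The region across its start was kept in all 4 lists, at 78400 bp and 60000 bp in control and 55200 bp and 51600 bp in knockout liver, and the loss was in the gene body. H3K27ac peaks within 10 kb of Meis2 numbered 2, 7, 7 and 5 and H3K4me1 peaks 12, 13, 17 and 11 in control male, control female, knockout male and knockout female liver. Meis1 (chr11:18780433-18918961, minus strand) did not change by 25 percentage points and was mostly free of H3K27me3 in every list, with 14.5% and 8.47% covered in control and 6.16% and 2.86% in knockout liver. It had 4, 12, 8 and 8 H3K27ac peaks and 12, 9, 15 and 10 H3K4me1 peaks within 10 kb.

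**Figure D1:**
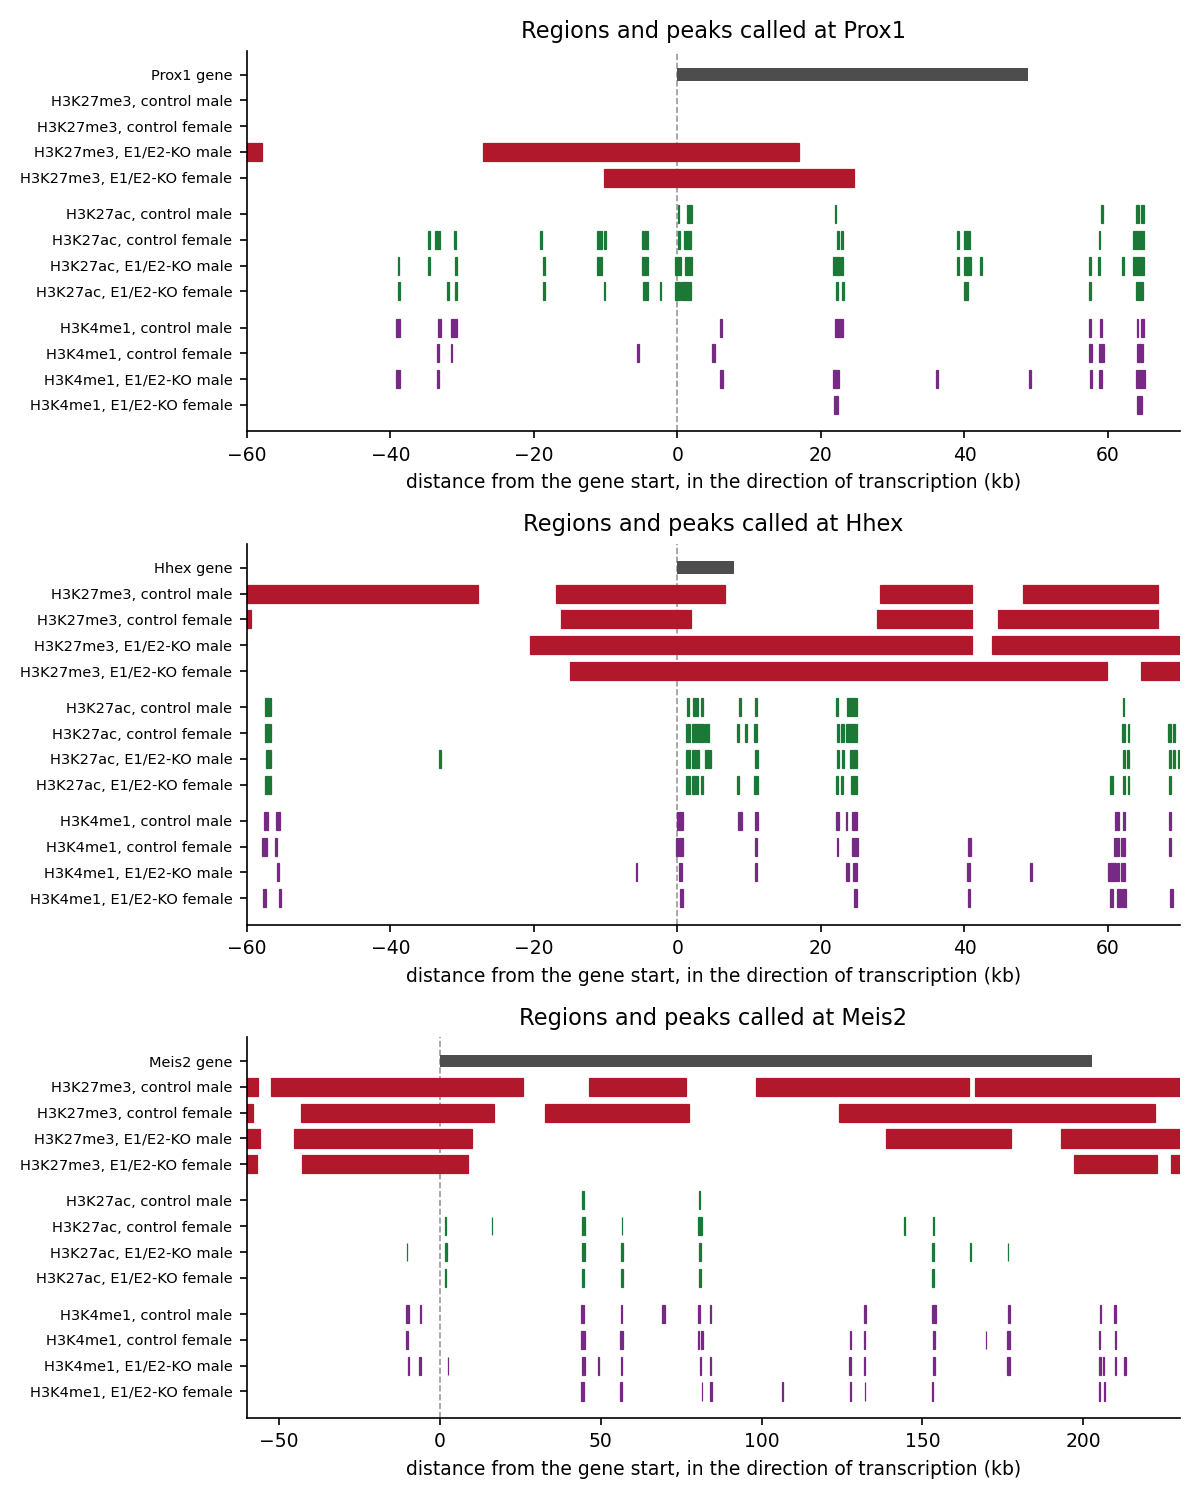
Called H3K27me3 regions (red), H3K27ac peaks (green) and H3K4me1 peaks (purple) at Prox1, Hhex and Meis2 in the 4 pooled lists of each mark; the horizontal axis is the distance from the gene start in kb, positive in the direction of transcription, the grey bar is the gene, and items are cut at the window's edge. The H3K27me3 region over the start of Prox1 appears in the E1/E2-KO lists only, that of Hhex extends downstream in both, and Meis2 keeps its region at the start while its coverage falls to 28.8% and 7.09%.

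Counted by a change of at least 25 percentage points in coverage, 1 of the 56 genes fell in males (Meis2; 6.07% of all genes fell) and 1 in females (Meis2; 7.57% of all genes). Coverage rose by that much at 1 gene in males (Prox1; 9.86% of all genes) and at 2 in females (Prox1 and Hhex; 6.31% of all genes). In males, Hhex rose by 15.5 points. The genes that changed were among the 4 that were not covered in all lists, and a gene at 100% in control liver can only fall. The remaining 52 changed by 17.6 points at most, which was the rise of Lhx6 in females.

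Markers of liver cell types moved in the same lists. Of 8 hepatocyte markers, 0 were covered by H3K27me3 in either control list and 4 (Apoa1, Hnf4a, Tat and Fgb) were covered in both knockout lists, while all 8 had H3K27ac peaks in every list, 25, 50, 55 and 47 in control male, control female, knockout male and knockout female liver. Of 6 endothelial markers, 5 were covered in each control list and 1 (Kdr) in each knockout list, and their H3K27ac peaks numbered 8, 25, 33 and 30 in the same order. Stellate cell markers were covered at 4 of 6 in every list, and their H3K27ac peaks numbered 1, 3, 4 and 7. Bile duct markers were covered at 5 of 5 in every list, with 2, 4, 5 and 4 H3K27ac peaks. Kupffer cell markers were covered at 4, 4, 4 and 3 of 6, with 4, 3, 4 and 3 H3K27ac peaks, and lymphocyte markers at 4, 4, 4 and 3 of 5, with 7, 8, 8 and 7 peaks. The part of cell type in the results for Prox1, Hhex, Meis2 and the other homeobox genes was not tested.

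The homeobox genes that the adult liver or most tissues use, 15 genes listed for comparison, were the counterpart of this set. None of the 15 was covered in all 4 lists, while 52 of the 56 were, and all 15 had H3K27ac within 10 kb in every list. Coverage rose by at least 25 points in both sexes at 1 of the 56 (1.79%), Prox1, against 3.33% of all genes. Of the comparison genes, Onecut1, which encodes a hepatocyte and bile duct transcription factor, had 0% and 3.85% covered in control male and female liver and 100% in both knockout lists. It resembled Prox1 in that H3K27ac was called in all lists. In contrast, 39 of 39 Hox genes, 9 of 9 Pax genes and 47 of 49 other developmental homeobox genes were covered in all 4 lists, with 0 Hox and 0 Pax genes changing by 25 points in either sex. Of the 49 other developmental homeobox genes, 1 fell in males (2.04%) and 2 rose in females (4.08%), shares close to those of the 56.

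The H3K27me3 regions that held the 56 genes were wide in all 4 lists. The region with the largest share of the gene had a median width of 128000 bp in control male, 102800 bp in control female, 141000 bp in knockout male and 104400 bp in knockout female liver. Over all covered genes the medians were 60800, 54400, 64000 and 58000 bp, and over all regions of the lists 30400, 23600, 31600 and 30400 bp. Regions of at least 100 kb held 33, 30, 36 and 31 of the homeobox genes. Among all covered genes the shares in such regions were 28.5%, 26.8%, 32.2% and 27.1%.

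The widest region in control male liver held Nkx6-2, a spinal cord and oligodendrocyte gene, at 422800 bp, and the same gene was at 408400, 439200 and 420800 bp in control female, knockout male and knockout female liver. The regions of Irx3 and Irx5, Iroquois genes of heart and neural patterning, came next in control male liver at 363200 and 290000 bp. Irx3 was less uniform, with 130400 bp in control female, 235200 bp in knockout male and 234400 bp in knockout female liver. The narrowest were Pitx3, a lens and midbrain gene, at 21200 bp and Hhex at 23600 bp in control male liver, followed by Six4 and Lhx6, both at 34400 bp. Pitx3 measured 40000 bp in control female, 45600 bp in knockout male and 39600 bp in knockout female liver.

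Neighbouring genes shared a region. Dlx1 with Dlx2, Dlx3 with Dlx4, Dlx5 with Dlx6, which are convergently transcribed pairs that act in forebrain, limb and face development, and Pdx1 with Cdx2 lay in 1 region in all 4 lists, and Six2 with Six3 in the knockout male list. The genes with a region, 55 in each control list and 56 in each knockout list, therefore rest on 51, 51, 51 and 52 distinct regions. Taken per distinct region, the median widths were 128000, 102800, 133600 and 104400 bp. The pair Pdx1 and Cdx2 lay in a region of 222400, 255200, 213600 and 214800 bp in control male, control female, knockout male and knockout female liver, 4 values within 1.5-fold of each other.

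Between knockout and control liver, the median ratio of widths at the 55 genes with a region in both lists was 1.02 in males and 1.02 in females, and over all covered genes 1.04 and 1.01. Regions were at least 1.5-fold wider at 13 genes in males (23.6%, against 21.6% of all covered genes) and at 7 in females (12.7%, against 19.1%). They were at least 1.5-fold narrower at 7 genes in males and 6 in females, 12.7% and 10.9%, against 11.4% and 16.0% of all covered genes. The male shares are near those of all covered genes, and both female shares are lower than theirs. At 11 of the 13 genes in males and 6 of the 7 in females, the wider knockout region spanned 2 or more separate regions of the control list, so that it covered stretches that were partly in regions before. Lhx6 was wider in both sexes (34400 to 67200 bp in males, 31200 to 65200 bp in females), with 1 control region under the knockout region. Barx2 (64800 to 110400 bp and 58800 to 100800 bp) and Hhex also measured wider in both sexes, each with more than 1 control region joined. Msx1 was narrower in both sexes (191600 to 96000 bp and 150400 to 90800 bp). Meis2 counts as narrower too, but the ratio takes the region with the largest share of the gene in each list, and in females this was a region in the gene body in control and the region over the start in knockout liver. Dlx3 and Dlx4 had the highest ratio in males, 3.85, from 103200 to 397600 bp, over 3 control regions.

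**Figure D2:**
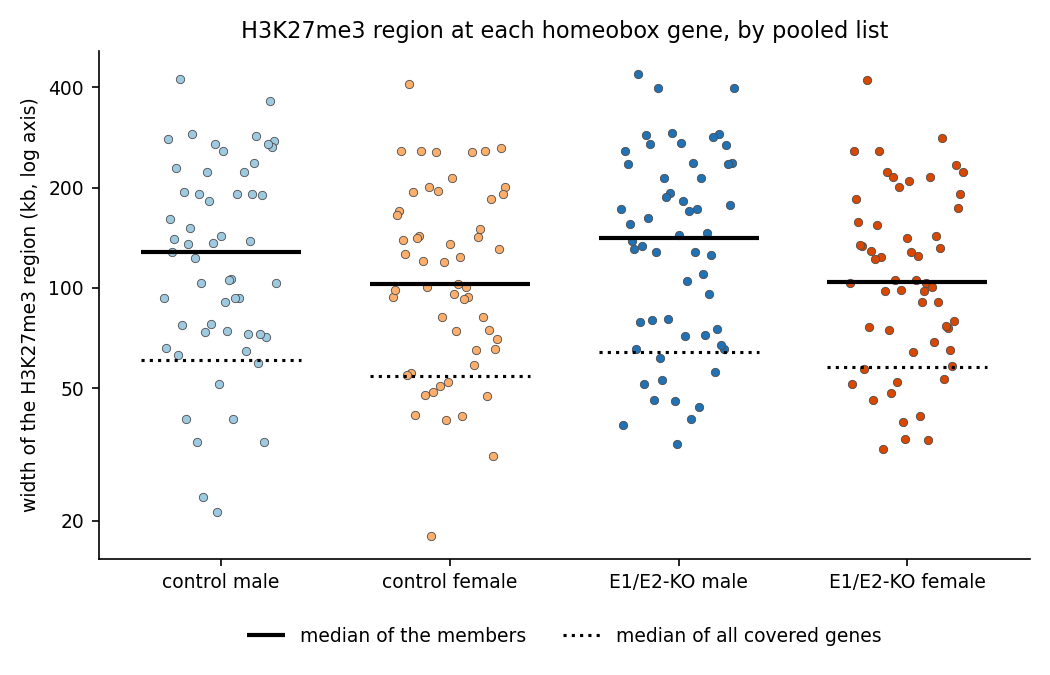
Width of the H3K27me3 region that holds the largest share of each homeobox gene, on a log axis in kb, in the 4 pooled lists; each point is 1 gene, solid lines are the medians of these genes and dotted lines the medians of all covered genes. The homeobox medians (128000, 102800, 141000 and 104400 bp) lie above the dotted lines in all 4 lists, and the genes spread over more than a factor of 10 in each.

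H3K27ac, the active mark, was scarce at these genes in control liver. At least 1 peak lay within 10 kb of 12 genes in control males and of 16 in control females, against 60.5% and 67.1% of all genes, and of 27 genes in knockout male and 24 in knockout female liver, against 69.0% and 68.4%. The homeobox counts are 21.4%, 28.6%, 48.2% and 42.9% of the 56. Close to the annotated start, within 1 kb, the counts were 4, 5, 14 and 13 genes, against 44.9%, 50.9%, 51.9% and 51.5% of all genes. Among the genes covered by H3K27me3 in all 4 lists, peaks at the start were also rarer at homeobox genes in control liver, 2 and 3 of 52 (3.85% and 5.77%) against 11.4% and 21.3%, and came to 12 and 11 of 52 (23.1% and 21.2%) against 25.7% and 24.6% in knockout liver.

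No H3K27ac peak lay within 10 kb of 26 of the 56 genes in any list (46.4%, against 28.2% of all genes and 33.5% of the covered genes). They include Pdx1 and Cdx1, Nkx2-1 of lung and thyroid, Otx2 of the forebrain, En1 of the midbrain and all NK genes except Nkx2-5, a heart gene. Summed over the 4 lists, the most H3K27ac peaks lay at Prox1, Meis1, Meis2 and Hhex, followed by Lhx6 with 2, 5, 5 and 3 peaks in control male, control female, knockout male and knockout female liver. Pitx3, with 3, 3, 5 and 3, and Lhx1 came close to Lhx6, and both had more peaks than Meis2 or Lhx6 in control males. Of the other genes that H3K27me3 covered in part, Barx2 had 0 peaks in every list. The median over the 56 genes was 0 in each list.

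From control to knockout liver, the number of H3K27ac peaks rose at 26 genes and fell at 1 (Hhex) in males, where 44.4% of all genes rose and 4.73% fell. In females it rose at 14 and fell at 6 genes, where 23.0% of all genes rose and 19.5% fell. The male share of 46.4% is near that of all genes, and the control male list is the shortest for this mark, with 29359 peaks against 49702, 55930 and 51253 in the control female, knockout male and knockout female lists. When every list was cut to its 29359 widest peaks, 17 genes rose in males (30.4%, against 15.5% of all genes) and 14 in females (against 15.9%).

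A rise in both sexes was seen at 13 genes (23.2%, against 15.8% of all genes), namely Dlx4, Six4, Six6, Irx1, Irx2, Irx5, Lhx1, Lhx2, Lmx1a, Nkx2-5, Otx1, Alx4 and Msx1. The share was 22.4% for the other developmental homeobox genes (11 of 49). It was higher for the Hox genes (25 of 39, 64.1%) and the Pax genes (5 of 9, 55.6%). Msx1, a craniofacial and limb gene, had 0 peaks in both control lists, 3 in knockout male and 2 in knockout female liver. Irx2 had 0 and 0 in control and 2 and 2 in knockout liver, and Alx4, an aristaless-like gene of the skull and limb, 0 and 0 against 2 and 3. Six4, a muscle and kidney gene, had 1 and 1 against 3 and 5, Otx1 of the brain 0 and 0 against 2 and 3, Irx1 0 and 0 against 2 and 1, and Nkx2-5 1 and 0 against 4 and 2. Lhx2 had 0 in control male and 2 in control female, 6 in knockout male and 3 in knockout female liver, and Lhx1, a kidney gene, 3 and 2 against 4 and 4. The remaining 4 were Irx5 with 1 and 1 against 3 and 2, Dlx4 with 0 and 1 against 3 and 2, Six6, a gene of the eye and pituitary, with 0 and 0 against 1 and 2, and Lmx1a with 0 and 0 against 1 and 1.

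The peaks that had no counterpart in the control list of the same sex were 66 in males at 27 genes and 32 in females at 19 genes. These are 48.2% and 33.9% of the 56, against 47.6% and 28.8% of all genes. Of the 52 covered genes 44.2% and 32.7% had such a peak, near the 46.0% and 30.6% of all covered genes. At least 1 such gained peak in both sexes was found at 17 genes, 30.4% against 23.9% of all genes. Lost peaks in both sexes were found at 2, Lhx6 and Hhex (3.57%, against 6.75% of all genes). Goosecoid (Gsc), a paired-like gene of the gastrula and face, was among the 17, with 0, 2, 1 and 2 peaks in control male, control female, knockout male and knockout female liver, as was Pitx3. Most of the gained peaks, 56 of 66 in males and 29 of 32 in females, lay inside an H3K27me3 region called in the knockout list of the same sex, in lists where 53 and 54 of the 56 genes were covered. Of the gained peaks, 13 in males and 10 in females were centred within 1 kb of a start, 23 and 10 overlapped an exon, 28 and 13 an intron, and 15 and 9 lay between genes.

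In each sex 18 of the gained peaks overlapped a knockout peak of the other sex and no control peak of either sex. At Msx1, 1 of these lay over exon sequence and was centred 337 bp (male) and 347 bp (female) past the start, and another lay 6932 bp and 7228 bp past the start, downstream of the gene. At Irx5 the shared peak was centred 488 bp and 411 bp past the start, and at Otx1 1 shared peak was centred 880 bp and 828 bp past the start. Upstream peaks shared by the sexes lay at Nkx2-5, centred at -8554 bp (male) and -8480 bp (female) from the start, and at Irx2, at -4297 bp and -4278 bp. The Irx2 peak measured 679 bp in males and 556 bp in females and lay between genes inside H3K27me3. Its central 250 bases, common to both lists, at chr13:72761842-72762091 of mm9, plus strand, are shown as the example of a stretch with H3K27ac called in both knockout lists and in neither control list; capitals mark CG, of which there are 10.
Irx2 upstream peak: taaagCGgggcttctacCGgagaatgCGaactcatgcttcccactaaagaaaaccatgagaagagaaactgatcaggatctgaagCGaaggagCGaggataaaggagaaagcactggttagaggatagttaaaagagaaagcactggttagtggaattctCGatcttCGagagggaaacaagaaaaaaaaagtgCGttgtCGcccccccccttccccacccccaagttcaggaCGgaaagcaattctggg

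**Figure D3:**
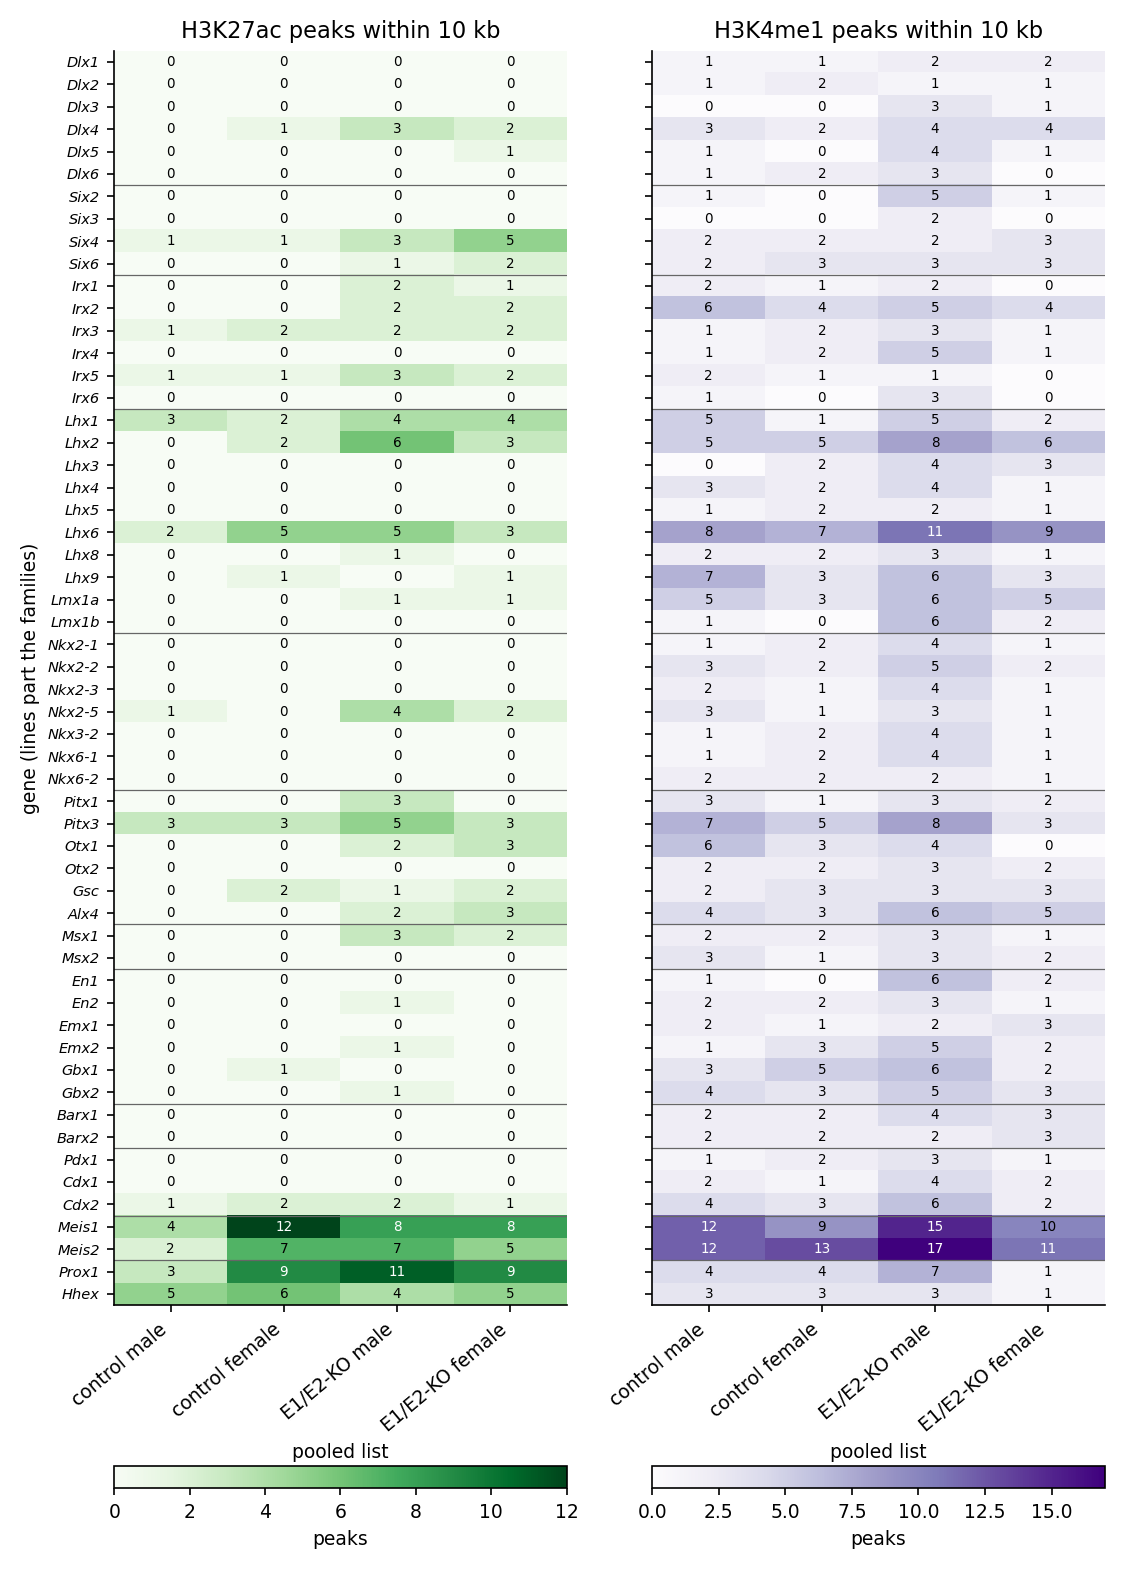
Number of H3K27ac peaks (left, green) and H3K4me1 peaks (right, purple) within 10 kb of each of the 56 genes, in the 4 pooled lists; each cell holds the count, and horizontal lines part the families. H3K27ac is 0 in all 4 lists at 26 genes, and H3K4me1 has its highest counts in the E1/E2-KO male column at most genes.

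H3K4me1, unlike H3K27ac, was called near most of the 56 genes in every list. At least 1 peak lay within 10 kb of 53 genes in control male, 49 in control female, 56 in knockout male and 50 in knockout female liver, against 74.4%, 71.4%, 75.4% and 71.0% of all genes. The peaks summed over the genes were 159, 134, 250 and 128, with medians of 2, 2, 4 and 2 per gene. A peak within 10 kb of neighbouring genes counts for each of them in these sums.

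In males, knockout liver had more H3K4me1 peaks than control at 41 of the 56 genes (73.2%, against 25% of all genes and 40.9% of the covered genes). It had fewer at 4, Irx2, Irx5, Lhx9 and Otx1 (7.14%, against 29.2% of all genes and 15.4% of the covered genes). The lists held 69797 peaks in control male and 67913 in knockout male liver, and the part of list length was not tested. In females, 21 genes had more (37.5%, against 20.7% of all genes and 28.9% of the covered genes) and 24 fewer (42.9%, against 30.9% and 22.2%), with 54798 and 51417 peaks in the lists. When every list was cut to its 51417 widest peaks, 24 genes had more in females (42.9%, against 23.6% of all genes). Fewer peaks were found there at 19 genes (33.9%, against 26.9%). In males 39 genes had more (69.6%, against 24.4%) and 8 fewer (14.3%, against 25.2%). The difference between the sexes was not tested. H3K4me1 of the other developmental homeobox genes rose at 28 of 49 (57.1%) in males and 15 of 49 (30.6%) in females, and that of the Hox genes at 23 of 39 (59.0%) and 4 of 39 (10.3%). The Pax genes rose at 6 of 9 in males and also at 5 of 9 (55.6%) in females, where 3 of 9 fell.

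The male rise reached all families. The sum of H3K4me1 peaks was higher in knockout than in control males in 12 of 12 families, as 7 against 17 in control and knockout males for Dlx, 13 against 26 for NK, 13 against 27 for the engrailed, Emx and Gbx genes, and 37 against 55 for the LIM homeodomain genes. The smallest rises as a ratio were 24 against 27 for the paired-like genes and 5 against 6 for Msx. In females, 4 families were higher, 7 lower and 1 equal.

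Of single genes, En1, which patterns the midbrain and limb, had 1 and 0 H3K4me1 peaks in control male and female and 6 and 2 in knockout male and female liver. Lmx1b, a limb and kidney gene, had 1 and 0 against 6 and 2, Six2, a kidney progenitor gene, 1 and 0 against 5 and 1, and Dlx3 0 and 0 against 3 and 1. At these 4 genes both sexes rose, the males by more peaks. Irx4, a heart ventricle gene, had 1 and 2 against 5 and 1, Nkx2-1 1 and 2 against 4 and 1, and Pdx1 1 and 2 against 3 and 1, so that males rose and females fell. Such opposite changes were found at 18 of the 56 genes (32.1%, against 8.59% of all genes), and the reverse, a fall in males with a rise in females, at 0. The single-sex shares, 73.2% with more in males and 42.9% with fewer in females, largely set this count, so it is no separate contrast.

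The most H3K4me1 peaks over the 4 lists were at Meis2 and Meis1, followed by Lhx6 with 8, 7, 11 and 9, Lhx2 with 5, 5, 8 and 6 and Pitx3 with 7, 5, 8 and 3 in control male, control female, knockout male and knockout female liver. All 5 are longer than the median of the 56 genes (7643.5 bp), and a longer gene has more room for peaks. Among the 43 homeobox genes under 20 kb, 30 (69.8%) had more H3K4me1 peaks in knockout than in control males, against 20.3% of all genes under 20 kb.

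At the start itself, within 1 kb, H3K4me1 was called at 33 genes in control male, 25 in control female, 44 in knockout male and 19 in knockout female liver, against 47.1%, 39.9%, 45.8% and 36.2% of all genes. Of the 52 genes covered by H3K27me3 in all lists, 32, 24, 43 and 18 had it there (61.5%, 46.2%, 82.7% and 34.6%), against 41.9%, 38.1%, 53.2% and 40.2% of all covered genes. The knockout male share was the highest of the 4 and the knockout female share the lowest. In the first 500 bp after the start, H3K4me1 was called at 27, 19, 34 and 13 of the 52, against 23.4%, 18.2%, 24.0% and 15.4% of all protein-coding genes. H3K27ac was called there at 1, 3, 7 and 9 of the 52, against 40.8%, 47.4%, 47.9% and 47.3% of all protein-coding genes.

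**Figure D4:**
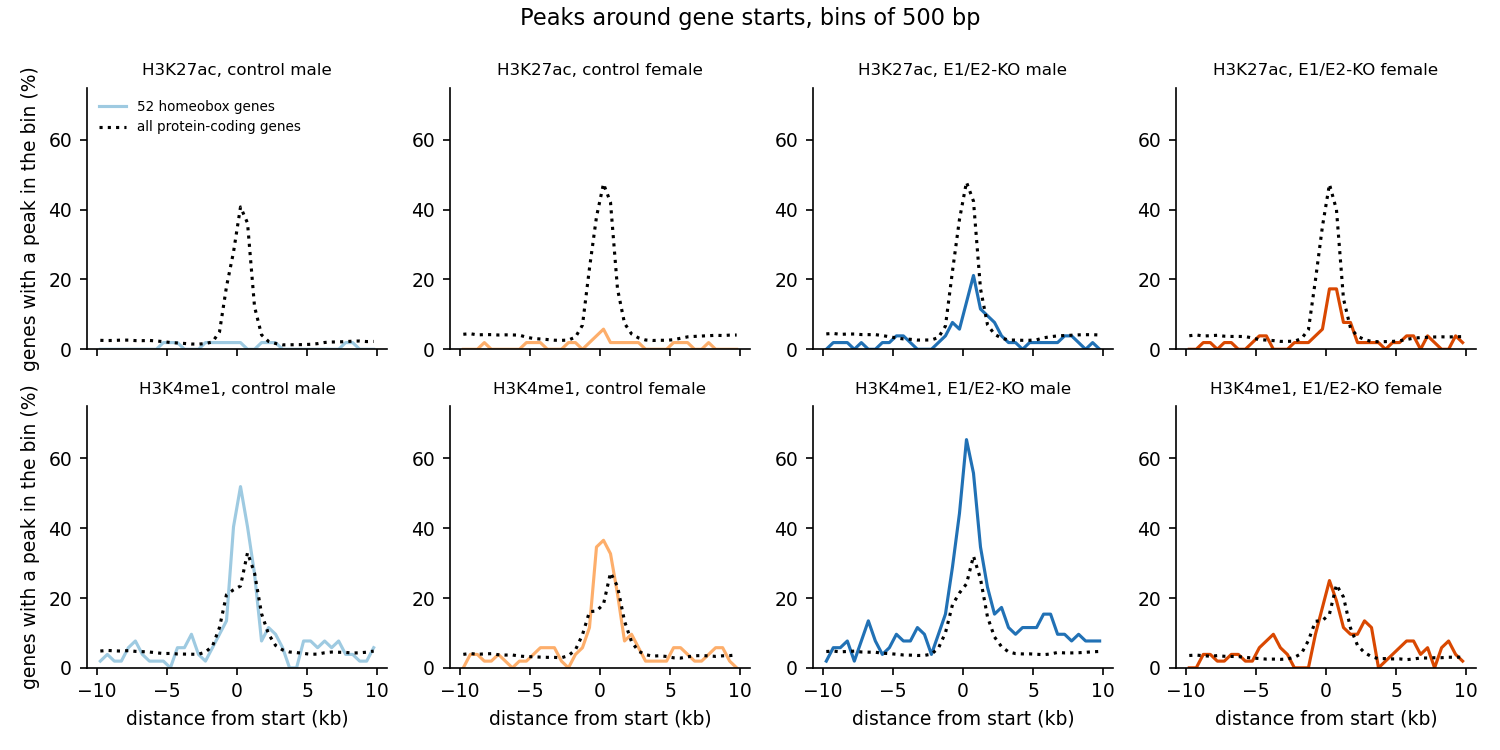
Share of genes (percent, vertical axis) with an H3K27ac peak (top) or H3K4me1 peak (bottom) in bins of 500 bp around the gene start (horizontal axis, kb), for the 52 homeobox genes covered by H3K27me3 in all 4 lists (coloured lines) and all 22225 protein-coding genes (dotted lines). H3K27ac at the homeobox starts lies far under the dotted line in control liver. It rises in both E1/E2-KO lists but stays under that line just after the start. H3K4me1 is highest in E1/E2-KO males.

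**Figure D5:**
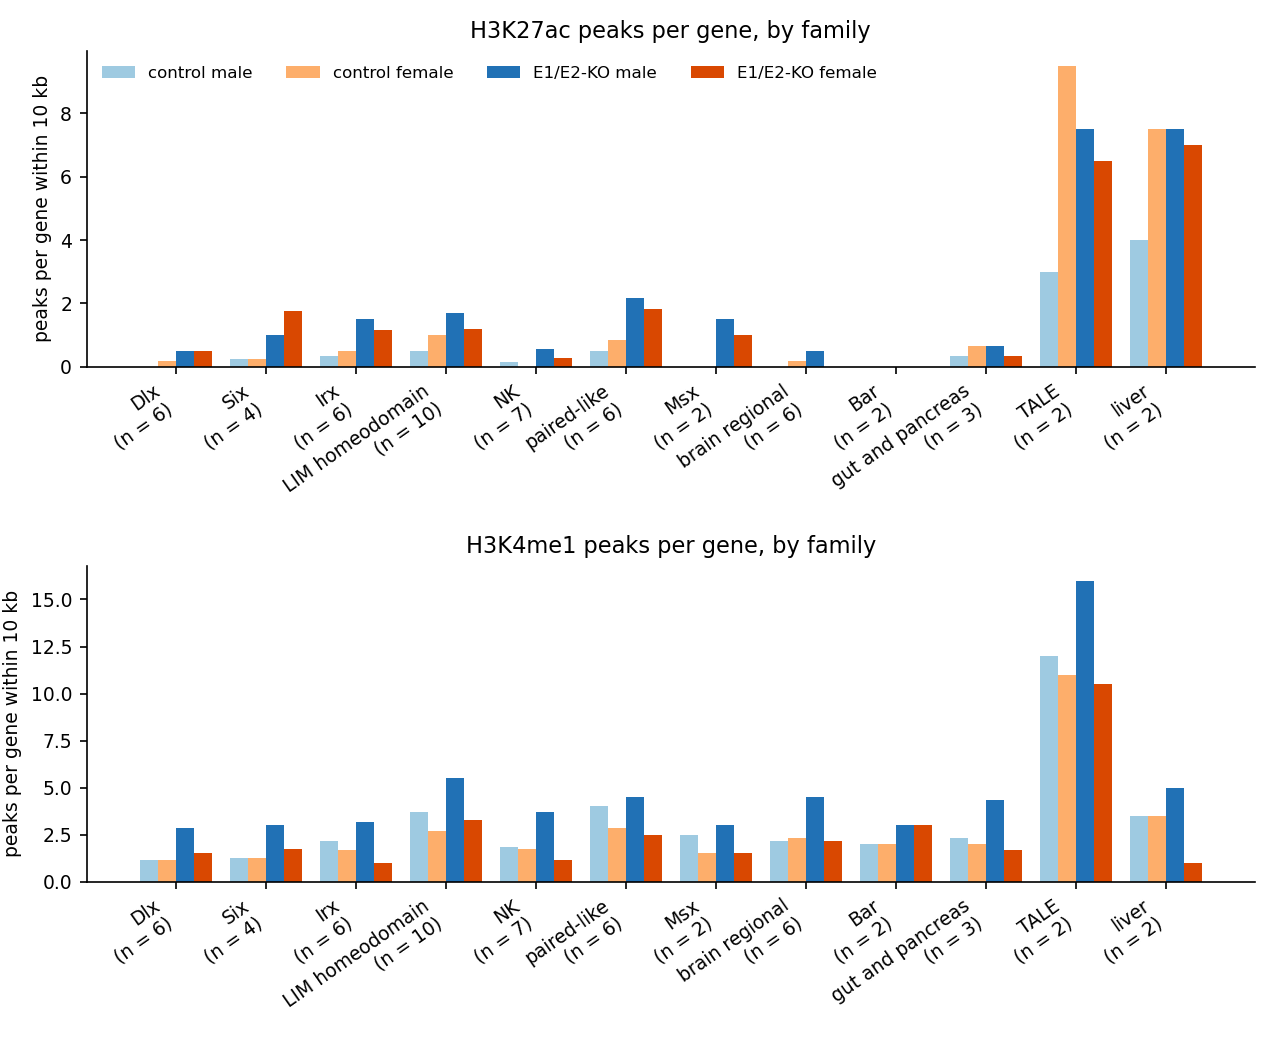
H3K27ac peaks (top) and H3K4me1 peaks (bottom) per gene within 10 kb, as the sum over a family divided by its number of genes n, in the 4 pooled lists; the group called brain regional holds the engrailed, Emx and Gbx genes, TALE holds Meis1 and Meis2, and liver holds Prox1 and Hhex. H3K4me1 is higher in E1/E2-KO than in control males in 12 of 12 families, and H3K27ac is concentrated at the TALE and liver pairs.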

How the data were processed

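Livers of 47 samples were profiled by ChIP-seq for H3K27me3, H3K27ac and H3K4me1. Per the paper's methods and the submitters' processing notes, the authors pooled the livers of a group, mapped reads to mm9 with Bowtie2 (version 2.3.2), used SICER (version 1.1; 400 bp windows, 2400 bp gaps) for H3K27me3 and MACS2 (version 2.1.1, defaults) for the other marks. The deposited lists, 12 in all, hold only chromosome, start, end and name, so peak strength and depth are unknown, no test was possible and n is 1 pooled list per group. Starts were read as counted from 0, and 1 base was added to SICER ends.

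Genes were the 22225 protein-coding symbols of GENCODE release M1 (Ensembl 65, NCBIM37, which is mm9), taken from 5′ to 3′ end. Overlap needed 1 bp. A gene counted as covered from 50%, a change from 25 percentage points. A peak without an overlapping peak in the control list is called gained, the reverse lost. RefSeq promoters (table of GRCm38.p6) matched 41 of the 56 genes exactly in mm9. The overlap code was tested on simulated lists, with 0 wrong values in 4000 queries. Programs were Python 3.11.15, NumPy 2.4.6, pysam 0.24.0, samtools 1.23.1 and matplotlib 3.10.9.

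The members, gene lists and tests were chosen with earlier results of these data known. Genes named in the text are Prox1, Hhex, Pdx1, Cdx1, Cdx2, Meis1, Meis2 and Lhx2, those whose coverage changed by 25 points or was under 50% in a control list, those with the most peaks (5 per mark), the widest and narrowest regions in control male liver (3 each, with ties), and those with an H3K27ac peak gained or lost in both sexes. Other genes are named as examples chosen after their values were seen. Some genes of the comparison lists are not reported here.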

Additional observations from a re-analysis of the deposited data

Results flagged for a closer look

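The number of H3K4me1 peaks rose at most of the homeobox genes in males and not in females. In males, the genes with more peaks within 10 kb in E1/E2-KO liver outnumbered those with fewer by 37 (41 against 4), and in females the balance was -3 (21 against 24). The difference was not tested, since each group has 1 pooled list. The balance in males rests on the control male and E1/E2-KO male lists of 69797 and 67913 peaks, and in females on lists of 54798 and 51417 peaks. The E1/E2-KO female list is the shortest for this mark; the part of its length in the result was not tested. When every list was cut to its 51417 widest peaks, 39 genes had more and 8 fewer in males (24.4% and 25.2% of all genes). In females 24 had more and 19 fewer (23.6% and 26.9% of all genes), so that the female balance had the sign of the male one.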

How the results depend on the processing

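No paired analysis was possible because the livers of a group were pooled before peaks were called, and no liver could be left out. Of 168 values under other settings, 141 came within 1.5 times the reported one, among them every count of covered genes and every count of genes with more H3K4me1 peaks. The other 27 follow, and the cause was not tested where none is given. A threshold of 50 points left 0 falling and 0 rising genes in males, against 3.68% and 6.26% of all genes. At 10 points, 2 rose in males (3.57%, against 14.4% of all genes) and 4 in females (7.14%, against 10.1%). Extended spans gave 2 (3.57%, against 10.6% of all genes) and the widest 50% of regions 3 (5.36%, against 8.67%) rising in males. Within 50 kb, H3K27ac was near 26, 35, 43 and 42 genes (control male, control female, E1/E2-KO male, E1/E2-KO female), since the window is larger. The counts of 26, 35 and 43 are 46.4%, 62.5% and 76.8%, against 74.1%, 78.3% and 79.8% of all genes. In E1/E2-KO males the share was thus near that of all genes. With this window 40 genes rose and 0 fell in males, and 26 rose and 11 fell in females. The shares of all genes for these changes and for E1/E2-KO females are not reported here. With the widest 50% of peaks, H3K27ac was near 7 genes in control males (12.5%, against 51.9% of all genes). It rose at 17 (30.4%, against 33.7%) and fell at 0 (against 2.54%) in males, and fell at 2 in females (3.57%, against 13.5%). H3K4me1 was then near 31 genes in E1/E2-KO females, 55.4% against 57.7% of all genes, so that the share was no longer above that of all genes. H3K4me1 fell at 10 in males (17.9%, against 23.9%). With equal numbers of the widest peaks, H3K27ac rose at 17 (30.4%, against 15.5% of all genes) and fell at 2 genes (3.57%, against 19.0%) in males. H3K4me1 fell at 8 in males (14.3%, against 25.2%). Within gene spans only, H3K27ac fell at 0 genes in males, against 2.79% of all genes. At RefSeq starts, added after seeing the data, 5 and 6 of 41 genes had H3K27ac in control male and female liver. The share over all genes was not computed for RefSeq starts. Merging regions within 5 kb gave a median width of 161600 bp in E1/E2-KO females. RefSeq starts, 1 gene per distinct region, genes under 20 kb, autosomes alone and equal numbers of peaks at the start were chosen after seeing the data.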
